A study of Mus musculus with 22 samples.

Results

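The collagen family was taken as the protein-coding genes with a collagen chain symbol, Col followed by a number, the letter a and a number. This gave 44 genes of the 54532 in each deposited table, of which 22046 are protein-coding. By the assembly that their chains form, 11 were grouped as fibrillar, 8 as basement membrane and 25 as other. A filter on low counts was passed by 43 of the 44 in the wild-type libraries, all but Col28a1, and by 44 of 44 in the Rag2 libraries.

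Bulk RNA-seq was made of the retina-choroid complex of mice after laser photocoagulation, a model of choroidal neovascularisation (CNV) in which new vessels sprout from the choroid through the membrane under the retinal pigment epithelium. Wild-type adult C57BL/6J mice gave 4 control libraries with no CNV and 4 libraries at each of 3 times after laser, day 3, day 7 and day 14. A separate table held day 3 libraries only, 3 from Rag2-/- mice, in which T and B cells do not form, and 3 from Rag2-/-γc-/- mice, which lack in addition the common gamma chain that natural killer cells need. All 6 Rag2 libraries carry the Rag2 deletion and the laser, and none is an unlasered control. The deletions are present in every cell, and the laser burns only spots of the tissue, so each library mixes burnt and unburnt retina and choroid. Whether the libraries are separate animals is not stated in the labels, so the p-values measure the spread between these libraries. The labels of control replicate 4 disagree, with no CNV in its title and the laser as its treatment, and results without it are given where they change.

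Collagens are the main structural proteins of connective tissue. Each molecule is a triple helix of 3 chains that is hydroxylated and folded in the endoplasmic reticulum with the help of the chaperone Serpinh1, trimmed outside the cell by proteases such as Bmp1, and cross-linked by Lox. Fibrillar collagens, types I, III and V among them, build the banded fibrils of scar and sclera. Type II, the fibrillar collagen of cartilage, also forms the fibrils of the vitreous with types XI and IX. Type IV chains form the sheet-like network of basement membranes, including Bruch's membrane beneath the pigment epithelium, the vessel walls, the inner limiting membrane and the lens capsule. Type VIII is a short-chain network collagen found in vessel walls and in Descemet's membrane of the cornea. Subretinal scar rich in types I and III is a known late feature of CNV.

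Library totals were 15033983 to 16848254 counts in the wild type and 27227847 to 30315086 counts in the Rag2 set. Il2rg, which encodes the common gamma chain, had no count in any of the 3 Rag2-/-γc-/- libraries, which allows at most 0.106 to 0.112 CPM per library (3 counts). It lay between 0.927 and 2.08 CPM in Rag2-/-. Rag2 itself had at most 0.246 CPM in any of the 22 libraries and checks nothing in this tissue. Wild-type libraries also held lens and ocular surface transcripts in very unequal amounts. A list of 10 lens genes summed to 158 to 12786 CPM in the controls, 23256 to 48805 CPM at day 3, 6.51 to 32408 CPM at day 7 and 587 to 136349 CPM at day 14, where CPM is the usual depth-scaled count, divided by the TMM-scaled library total. The highest sum was in day 14 replicate 1. The lowest was in day 7 replicate 2, where 6 of the 10 lens genes were at 0. A list of 10 cornea and conjunctiva genes summed to 2324 to 31042 CPM in the wild type, highest in day 3 replicate 3, and to 1.84 to 7.26 CPM in the Rag2 set. Against control, edgeR called 1 of 10 lens genes and 4 of 9 tested cornea and conjunctiva genes at day 3, all higher. Of 8 Müller glia markers 1 was higher and 2 lower there, and of 6 ciliary body and iris and 5 tested cartilage, sclera and bone markers 0 were called. Rpe65, a defining marker of the pigment epithelium, was at 168 to 280 CPM in the controls. In bulk tissue, fewer cells of a type and less RNA per cell cannot be told apart.

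In the control libraries of retina and choroid the collagens highest per length were Col4a1, Col8a2, Col17a1 and Col9a3. These libraries also held lens and ocular surface transcripts. Over the wild-type libraries Col4a1 went with the lens list and Col17a1 with the cornea and conjunctiva list, as given below. The part of these tissues in the control levels was not tested. Among basement membrane genes Col4a1 was at 27.5 ± 29.0 CPM per kb (SD, n = 4), Col4a2 at 19.6 ± 17.5 and Col18a1, whose product releases endostatin, at 15.2 ± 1.68. Among the others Col8a2 was at 27.3 ± 5.04 CPM per kb, Col17a1, a transmembrane collagen of epithelial hemidesmosomes, at 25.9 ± 19.6, and Col9a3, a chain of the fibril-associated type IX, at 25.4 ± 2.84. The fibrillar class was led by Col2a1 at 14.0 ± 1.22, Col11a2 at 5.09 ± 0.67 and Col1a1 at 3.39 ± 0.756 CPM per kb. Col3a1 stood eighth of the 11 fibrillar genes at 1.47 ± 0.528. The SD of Col4a1, Col4a2 and Col17a1 was large beside their mean, whereas Col18a1, Col2a1 and Col9a3 varied little, so the order of Col4a1, Col8a2, Col17a1 and Col9a3 cannot be read beyond the spread. Lengths are those of the deposited gene models, which count all annotated exons of a gene, so a gene with many extra exons appears lower per length. Col1a2, for example, has 12426 exonic bases there and its partner Col1a1 6563.

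**Figure D1:**
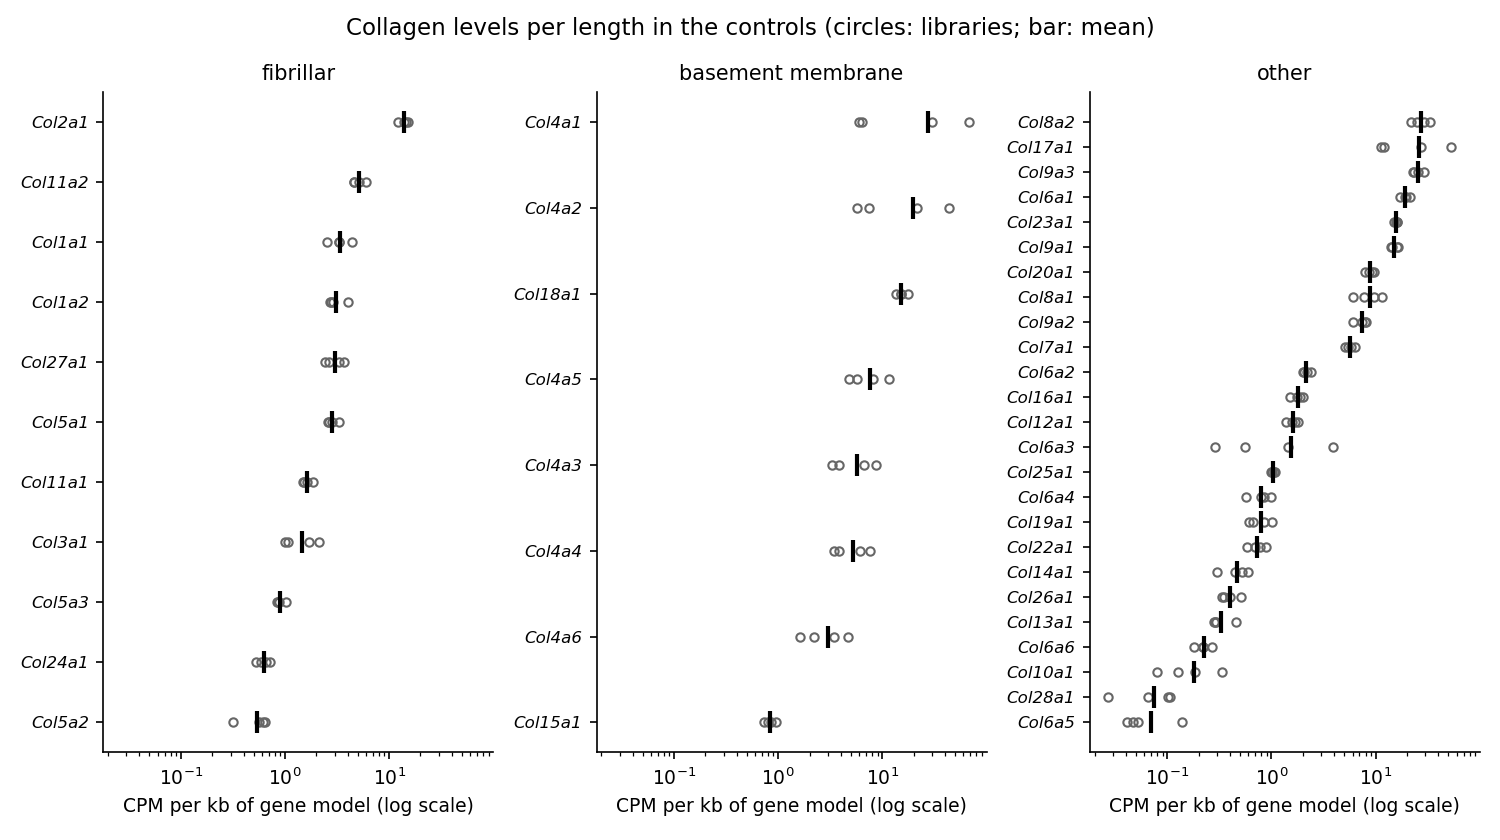
Levels of the 44 collagen genes in the 4 control libraries, in CPM per kb of the deposited gene model on a log axis, with 1 panel per class. Circles are libraries and the bar is the mean; Col4a1, Col4a2, Col6a3 and Col17a1 spread far more between the controls than Col18a1 or Col2a1.

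At day 3 after the laser, 11 of the 43 collagen genes tested differed from control, 6 higher and 5 lower, with edgeR's quasi-likelihood test and a Benjamini-Hochberg adjusted p under 0.05 over all genes. That is 25.6% of the collagens. Over all 18657 genes 14.7% were called, 6.97% higher and 7.77% lower. Groups did not overlap in 12 higher and 4 lower collagens of 43, beside 17.4% and 22.8% of all genes. The genes that rose were Col3a1, Col1a1, Col1a2, Col5a2 and Col5a3 of the fibrillar class and the short-chain Col10a1. The genes that fell were both type VIII chains, Col8a1 and Col8a2, the vitreous and cartilage collagen Col2a1, and the fibril-associated Col19a1 and Col22a1. By class, 6 of 11 fibrillar genes were called (median log2 fold change 0.49), 0 of 8 basement membrane genes (median 1.07) and 5 of 24 others (median -0.029), beside a median of 0.0088 over all genes. Leaving out 1 library moved the count of 11 to between 2 and 11. It was 2 without control replicate 2 or 3, and 4 without control replicate 4 or day 3 replicate 3. It was 5 without control replicate 1 or day 3 replicate 4, and 7 without day 3 replicate 1. The 4 kept without control replicate 4 were Col3a1, Col5a2, Col5a3 and Col8a2, and the other calls were lost. The count was 1, Col8a2, in a fit with lens and cornea scores as covariates, and 20 in a fit of only the control and day 3 libraries. In the basement membrane class edgeR gave 2 of 8 an unadjusted p under 0.05, beside 6970 of all 18657 genes, and DESeq2 called none. The fit of only the control and day 3 libraries called Col4a2, Col4a4, Col4a5, Col4a6 and Col18a1 higher. Over the whole table that fit also called many more genes than the fit of all wild-type libraries, as given in the closing sections.

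**Figure D2:**
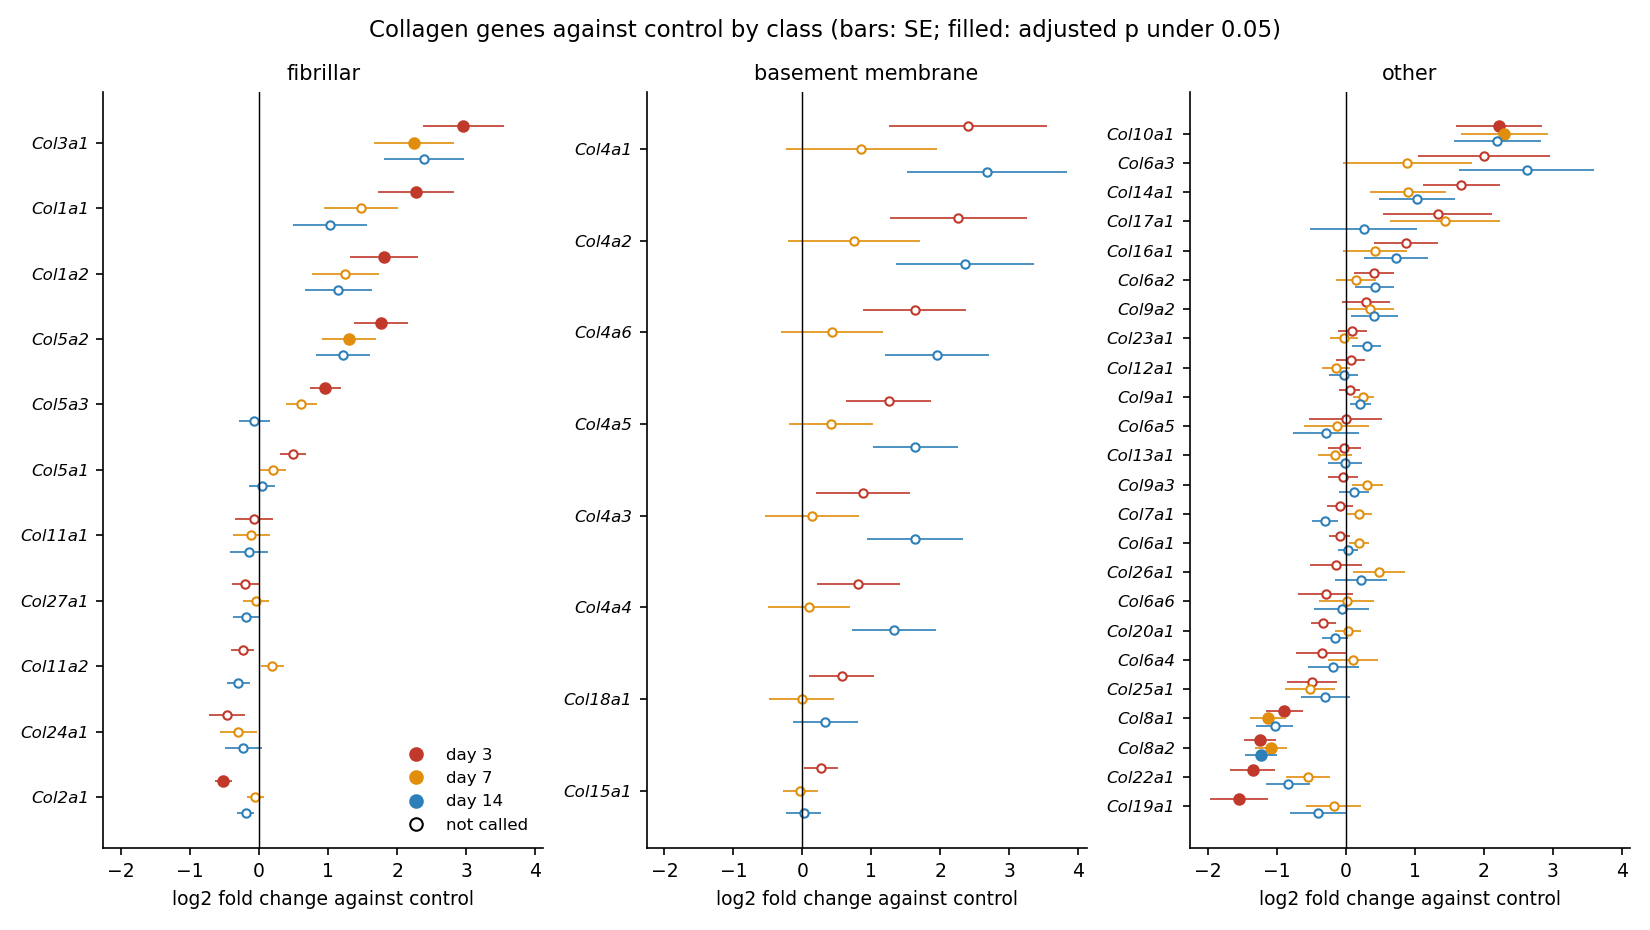
Log2 fold change of the 43 tested collagen genes at day 3, day 7 and day 14 against the same 4 controls, by class, with the SE of the edgeR model as bars. Filled points have an adjusted p under 0.05; the fibrillar genes from Col3a1 to Col5a3 lie to the right at day 3, Col8a1 and Col8a2 lie to the left at all 3 times, and the wide bars of Col4a1 and Col4a2 hold no filled point.

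Col3a1, the single chain of type III collagen, had the largest change. It lies on chromosome 1 (ENSMUSG00000026043, chr1:45311538-45349706, plus strand, mm10). In the 4 controls it measured 16.6, 9.77, 20.7 and 10.6 CPM, and at day 3 it measured 111, 47.6, 128 and 162 CPM. Every day 3 library lay above every control. The log2 fold change was 2.96 ± 0.589 (SE, adjusted p = 0.013), or 7.76-fold, and it was called in all 8 fits without 1 library. Col5a2, a type V chain whose gene is tail to tail with Col3a1 24614 bases away, went from 3.02 to 6.23 CPM in the controls to 12.1 to 24.7 CPM at day 3 (1.77 ± 0.394, adjusted p = 0.017). The call of Col5a2 was kept in 6 of the 8 fits without 1 library. Type V collagen forms the core on which type I fibrils assemble.

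The chains of type I collagen rose together. Col1a1, on chromosome 11, measured 21.8, 16.8, 28.8 and 21.6 CPM in the controls and 115, 40.1, 90.8 and 186 CPM at day 3. Its log2 fold change was 2.28 ± 0.552 (SE, adjusted p = 0.023). Col1a2, on chromosome 6, measured 35.6, 34.4, 50.2 and 33.5 CPM in the controls and 141, 66.2, 128 and 205 CPM at day 3, a log2 fold change of 1.81 ± 0.495 (adjusted p = 0.032). In both genes day 3 replicate 2 was the lowest of its group and still above all controls. The call of Col1a1 was kept in 2 of the 8 fits without 1 library (adjusted p up to 0.067). That of Col1a2 was kept in 1 of 8 (adjusted p up to 0.081). Type I needs 2 Col1a1 chains for each Col1a2 chain. The ratio of Col1a1 to Col1a2 was 0.448 to 0.908 in counts and 0.848 to 1.72 per length over the 16 wild-type libraries. The gene models used for length have 6563 and 12426 bases, so neither ratio can be read as a ratio of chains.

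Col5a3, a less common type V chain, had the smallest rise among the called fibrillar genes. It was at 5.81, 5.71, 5.97 and 7.02 CPM in the controls and 13.0, 13.8, 9.07 and 11.7 CPM at day 3 (log2 fold change 0.95 ± 0.225, adjusted p = 0.021). Col10a1, the collagen of hypertrophic cartilage, was at 0.247 to 1.04 CPM in the controls and 0.98 to 5.53 CPM at day 3 (2.22 ± 0.628, adjusted p = 0.034). Its groups overlap, and it had the lowest control level of the 11 genes called. In the 8 fits without 1 library the call was kept in 5 for Col5a3 and in 2 for Col10a1. Col5a1, the main type V chain, was higher in all 4 day 3 libraries and missed the threshold (0.49 ± 0.188, adjusted p = 0.082). The other 4 fibrillar genes, Col11a1, Col11a2, Col24a1 and Col27a1, lay between -0.47 and -0.074 on the log2 scale, and none was called.

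**Figure D3:**
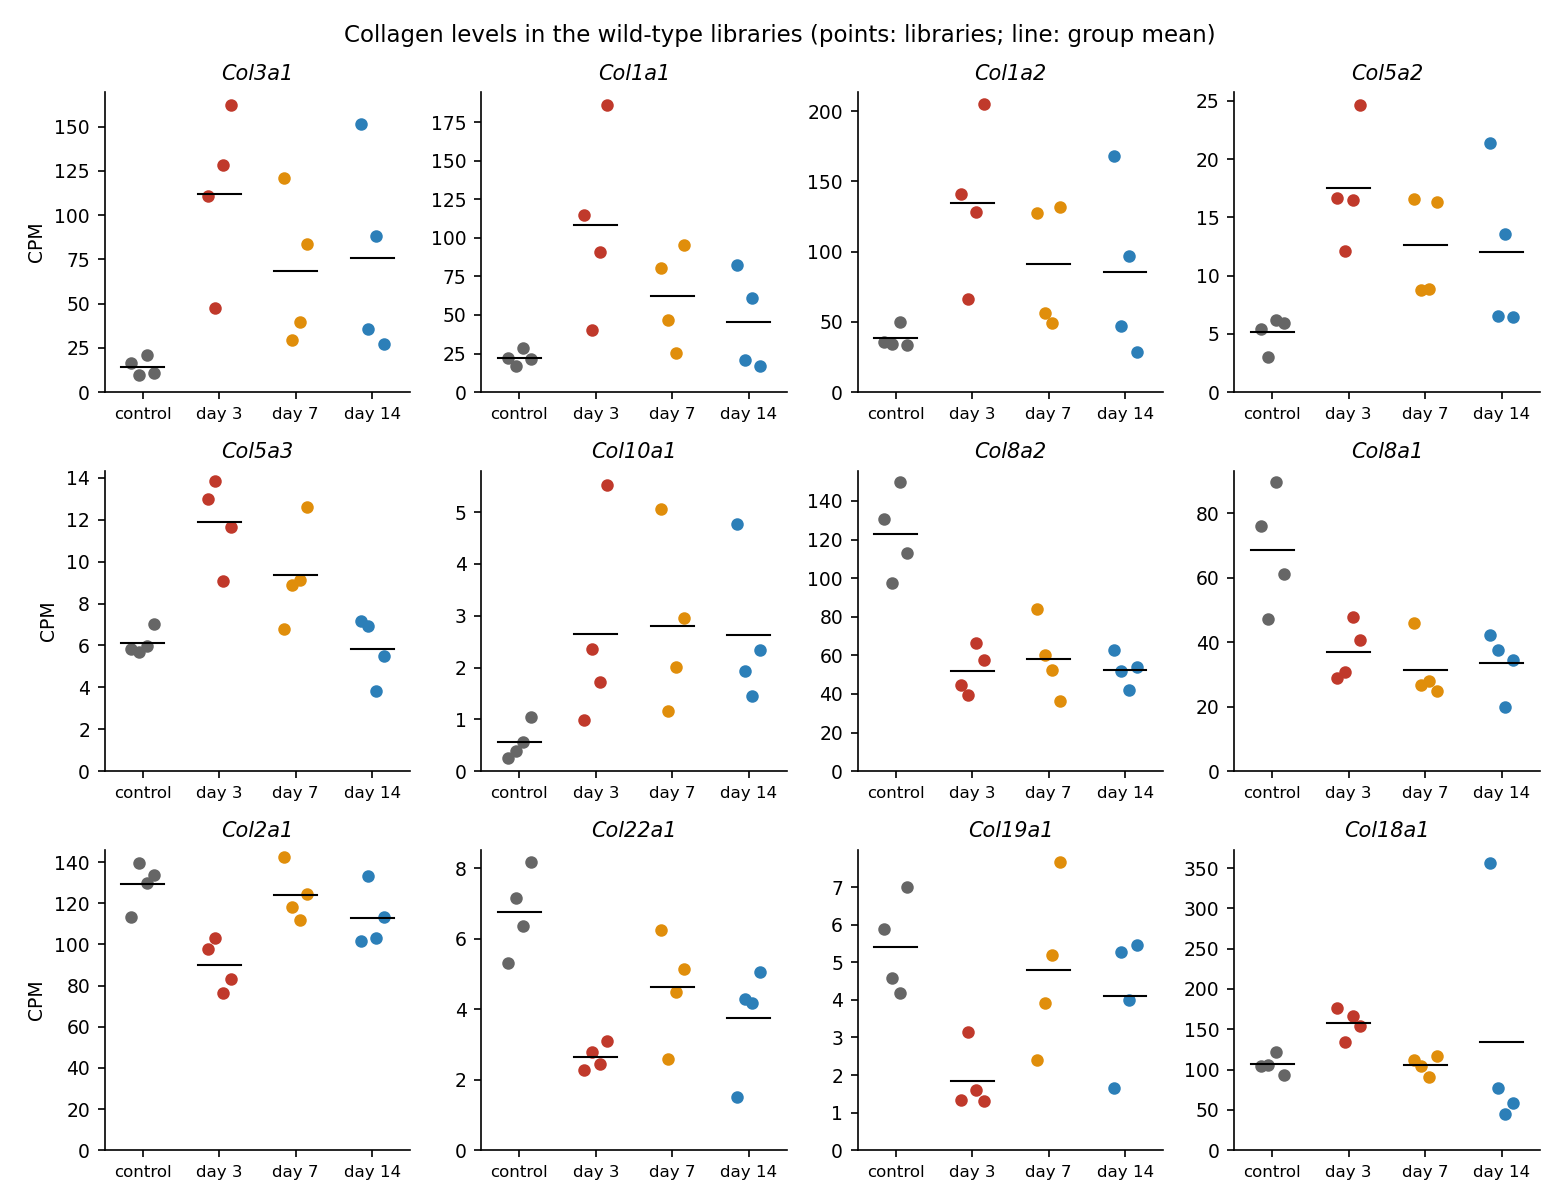
CPM of 12 collagen genes in the 16 wild-type libraries, with 1 point per library and a line at the group mean; each vertical axis starts at 0 and has its own range. Col3a1 is at 9.77 to 20.7 CPM in the controls and 47.6 to 162 CPM at day 3, Col8a2 is at 97.3 to 150 CPM in the controls and at no more than 83.8 CPM in any later library, and Col18a1 has 1 day 14 library at 357 CPM.

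Markers of several other cell types were also higher at day 3. The summed level of 8 fibroblast markers was 44.2 to 69.1 CPM in the controls and 86.1 to 179 CPM at day 3, and 0 of the 7 tested were called. The 5 wild-type libraries with the most Col3a1 were the 5 with the highest fibroblast sum, and Col1a1 and Col1a2 each shared 4 of 5. Of the 3 highest libraries Col3a1 shared 2, Col1a2 1 and Col1a1 0. Of 8 macrophage markers 5 were called higher at day 3, with a summed level of 54.2 to 85.4 CPM in the controls and 108 to 272 CPM at day 3. Of 10 pericyte and smooth muscle markers 3 were called higher (sum 123 to 156 CPM in the controls, 253 to 305 CPM at day 3). Of 8 skeletal muscle markers 2 were called higher, with sums of 191 to 546 and 507 to 1075 CPM. The part of these cells in the fibrillar rise was not tested. In a fit that carried a lens and a cornea score per library as covariates, the log2 fold change of Col3a1 at day 3 was 1.92 (adjusted p = 0.13). That of Col1a1 was 1.87 (adjusted p = 0.18), and neither was called. Lens sums did not overlap between day 3 and control, so that fit cannot assign the change to lens RNA or to day 3.

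The promoters of Col3a1 and Col1a2 are shown because both genes rose together at day 3 and their windows share none of the motifs searched. Each window holds 250 bases before and 50 bases after the start site in RefSeq on GRCm38.p6, on the plus strand, at chr1:45311288-45311587 and chr6:4505368-4505667. Capitals mark matches on either strand to the TATA box core TATAAA, the CCAAT box, the GC box GGGCGG and the AP-1 site TGANTCA.
Col3a1: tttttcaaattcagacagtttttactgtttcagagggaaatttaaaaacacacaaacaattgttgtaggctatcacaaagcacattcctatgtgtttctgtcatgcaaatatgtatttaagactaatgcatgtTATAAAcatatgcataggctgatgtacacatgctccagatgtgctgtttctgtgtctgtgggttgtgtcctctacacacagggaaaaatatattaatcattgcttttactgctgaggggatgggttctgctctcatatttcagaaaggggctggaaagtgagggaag
Col1a2: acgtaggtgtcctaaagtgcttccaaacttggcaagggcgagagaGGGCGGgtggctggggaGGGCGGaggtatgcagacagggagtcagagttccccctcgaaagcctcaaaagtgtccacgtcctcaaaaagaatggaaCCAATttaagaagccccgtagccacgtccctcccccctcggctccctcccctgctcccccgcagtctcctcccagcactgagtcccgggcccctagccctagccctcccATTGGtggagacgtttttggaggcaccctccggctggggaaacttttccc
The Col3a1 window holds the TATA box core at position 134, an offset of -117 from the start site, and no other of these motifs. The Col1a2 window holds a CCAAT box on each strand and 2 GC boxes on the plus strand. Of 32851 windows in the reference, 13.6% held the TATA box core, 37.4% the CCAAT box, 35.7% the GC box and 7.81% the AP-1 site. Of the 38 collagen windows, from 35 of the 44 genes, 5 held the TATA box core, 13 the CCAAT box, 23 the GC box and 1 the AP-1 site. Other genes that rose did share motifs with this pair, Col10a1 the TATA box core and Col5a3 the CCAAT and GC boxes. Col1a1 and Col5a2 have no window in the reference.

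Collagen messages are textbook targets of the miR-29 family, small RNAs that bind matching sites in 3′ untranslated regions and lower fibrillar collagen output in fibrosis. Small RNAs were not measured here, and the sequences are shown because most collagens of 2 classes carry the site. The 3 mature family members share bases 2 to 8, given in capitals, from RefSeq.
miR-29a-3p: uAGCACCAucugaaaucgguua
miR-29b-3p: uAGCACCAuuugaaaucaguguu
miR-29c-3p: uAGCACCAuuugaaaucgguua
The matching site TGGTGCT was found in the 3′ untranslated region of 24 of 44 collagens (54.5%), beside 13.6% of the 15256 tested protein-coding genes with such a region in GENCODE M21. Median lengths of the region were 920.5 and 959.0 bases. By class, 9 of 11 fibrillar, 7 of 8 basement membrane and 8 of 25 other genes had it. The site was in 4 of the 6 genes that rose at day 3, in 3 of the 5 that fell and in 17 of the 32 not called. Sites of Col3a1, Col1a1 and Col5a2, which rose, and of Col4a1 follow on the gene's strand in mm10 coordinates, with the match in capitals.
Col3a1, chr1:45348970-45348991: aaaatgtctcaaTGGTGCTata
Col1a1, chr11:94952526-94952547: ggaaggaatttcTGGTGCTata
Col5a2, chr1:45374963-45374984: ttcttttaatgaTGGTGCTaaa
Col4a1, chr8:11199759-11199780: accgtcacaacaTGGTGCTact
Col1a2 and Col10a1, which also rose, had no match in their regions of 882 and 1009 bases. These are letter matches only.

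The type VIII genes fell. Col8a2 (chromosome 4, chr4:126286793-126314330, plus strand, mm10) measured 131, 97.3, 150 and 113 CPM in the 4 controls and 44.5, 39.2, 66.2 and 57.4 CPM at day 3. The groups did not overlap, and the log2 fold change was -1.24 ± 0.233 (SE, adjusted p = 0.011). Among the 11 collagens called at day 3 it alone was also called with the lens and cornea scores as covariates (-1.57, adjusted p = 0.012). As said above, that fit cannot cleanly separate lens RNA from day 3. Col8a1, its partner on chromosome 16, measured 76.1, 47.4, 89.6 and 61.0 CPM in the controls and 28.8, 30.7, 47.9 and 40.6 CPM at day 3. Here day 3 replicate 3 lay just above control replicate 2, and the log2 fold change was -0.89 ± 0.265 (adjusted p = 0.041). The call of Col8a1 was lost in each of the 8 fits without 1 of the libraries (adjusted p up to 0.121). The count ratio of Col8a2 to Col8a1 stayed between 1.28 and 2.25 over the 16 wild-type libraries, against 0.789 to 2.68 over the 6 Rag2 libraries.

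Some pigment epithelium markers fell over the same comparison. Of 8 markers of that layer 3 were lower at day 3, among them Lrat (-2.02 ± 0.341, adjusted p = 0.0078) and Rpe65 (-1.45 ± 0.317, adjusted p = 0.016), enzymes of the visual cycle. Their summed level was 2462 to 3413 CPM in the controls and 1488 to 2284 CPM at day 3. At day 7 the sum was 3008, 3107, 2935 and 1457 CPM, with 1 of 8 markers called lower. Both type VIII genes lay below every control at that time. At day 14 the sum was 1806 to 2541 CPM. Of the 5 wild-type libraries with the least Col8a2, 4 were among the 5 with the lowest pigment epithelium sum, and for the 5 highest the number was 3. For Col8a1 these numbers were 3 and 2. The list for corneal stroma and endothelium, whose basement membrane holds type VIII collagen, summed to 1436 to 1898 CPM in the controls and 1031 to 1407 CPM at day 3, and 0 of its 5 genes were called, with a positive median of 0.45. The part of either list in the fall of type VIII was not tested.

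The promoters of the type VIII genes are shown because these genes moved together in all 3 comparisons with control, at chr4:126286544-126286843 on the plus strand for Col8a2 and chr16:57754688-57754987 on the minus strand for Col8a1. The motifs and capitals are as above.
Col8a2: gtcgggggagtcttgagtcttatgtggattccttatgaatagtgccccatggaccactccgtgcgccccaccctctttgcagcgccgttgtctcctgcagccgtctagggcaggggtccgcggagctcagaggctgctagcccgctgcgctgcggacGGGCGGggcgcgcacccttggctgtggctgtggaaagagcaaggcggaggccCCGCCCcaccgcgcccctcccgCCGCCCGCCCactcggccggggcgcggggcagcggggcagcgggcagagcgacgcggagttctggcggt
Col8a1: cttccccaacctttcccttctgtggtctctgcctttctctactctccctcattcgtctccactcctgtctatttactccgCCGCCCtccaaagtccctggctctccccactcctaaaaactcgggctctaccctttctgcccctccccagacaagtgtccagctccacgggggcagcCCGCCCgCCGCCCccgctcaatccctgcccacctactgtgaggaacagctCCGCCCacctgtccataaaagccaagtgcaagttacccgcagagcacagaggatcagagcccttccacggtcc
Each window holds 4 GC boxes, counting both strands, of which a pair overlaps in Col8a2, and none of the other motifs.

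Col2a1, Col19a1 and Col22a1 also fell at day 3. Col2a1 measured 113, 140, 130 and 134 CPM in the controls and 97.7, 103, 76.6 and 82.9 CPM at day 3, with no overlap (-0.52 ± 0.123, adjusted p = 0.021). Col22a1, a collagen of tissue junctions, was at 5.32 to 8.19 CPM in the controls and 2.27 to 3.09 CPM at day 3 (-1.35 ± 0.325, adjusted p = 0.022). Col19a1, known from synapses and from muscle, was at 4.19 to 7.02 CPM in the controls and 1.31 to 3.14 CPM at day 3 (-1.55 ± 0.417, adjusted p = 0.030). None of the 3 overlapped between the groups. In the 8 fits without 1 library the call was kept in 3 for Col2a1, 3 for Col22a1 and 1 for Col19a1. Their adjusted p went up to 0.070, 0.067 and 0.092.

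Basement membrane genes had large differences and no call in the fit of all 16 libraries. The fit of only the control and day 3 libraries called 5 of the 8, with Col4a2 at an adjusted p of 0.032 and Col4a1 not among them. That fit also called many more genes over the whole table, as given in the closing sections. Col4a1 (chr8:11198423-11312826, minus strand, mm10) measured 44.3, 504, 226 and 47.5 CPM in the controls and 728, 1091, 988 and 1530 CPM at day 3. All day 3 libraries lay above all controls, but the controls themselves spanned more than an order of magnitude, and the log2 fold change of 2.40 ± 1.14 did not pass (adjusted p = 0.14). Col4a2, transcribed from the same short region in the opposite direction, had 2.26 ± 0.993 (adjusted p = 0.11). The gene models of the pair overlap by 22 bases, and reads there cannot be told apart if counting ignored strand. For Col4a3, Col4a4, Col4a5 and Col4a6 the log2 fold change was 0.81 to 1.63, and 5 of the 8 basement membrane genes had no overlap between the groups, all higher.

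Type IV levels followed the lens list from library to library. Of the 5 wild-type libraries with the highest lens sum, 4 were among the 5 highest for Col4a1, and the 5 lowest were the same libraries. In day 14 replicate 1, where the lens sum was 136349 CPM, Col4a1 was at 4238 CPM and Col4a2 at 2111 CPM. In day 7 replicate 2, where it was 6.51 CPM, Col4a1 was at 35.0 CPM and Col4a2 at 37.0 CPM. In the fit with both scores as covariates, the day 3 log2 fold change was 0.30 for Col4a1 (adjusted p = 0.87) and 0.44 for Col4a2 (adjusted p = 0.78). Lens RNA and day 3 cannot be cleanly separated in that fit, because their lens sums do not overlap with those of the controls. The type VI chain Col6a3, named after its values were seen, shared the same numbers of libraries with the lens list, 4 of the 5 highest and 5 of the 5 lowest. In the Rag2 set Col4a1 stayed between 73.7 and 117 CPM while the lens sum went from 93.7 to 8052 CPM. Endothelial markers, another source of type IV collagen, summed to 244 to 335 CPM in the controls and 243 to 479 CPM at day 3, with 1 of 10 called higher, Pecam1. The part of endothelial cells in the type IV differences was not tested.

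**Figure D4:**
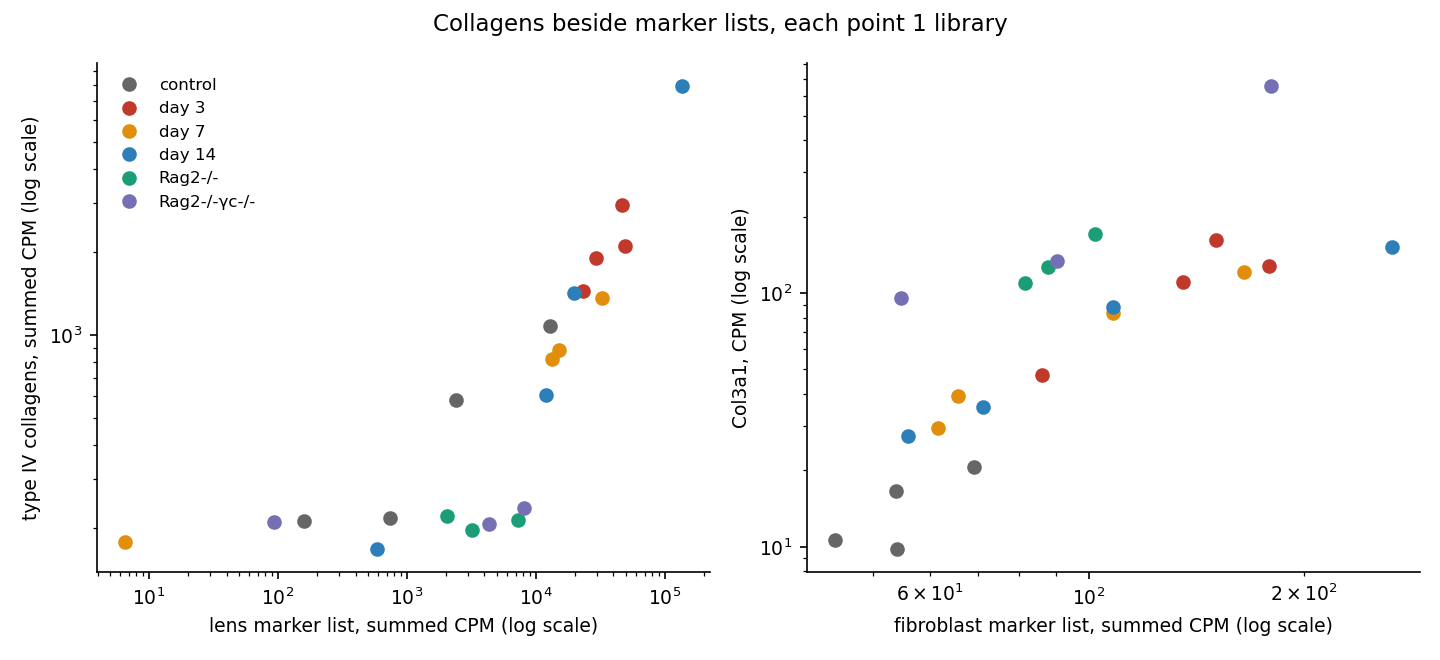
Each point is 1 of the 22 libraries, coloured by group, on log axes in CPM. On the left, the summed level of the 6 type IV genes against the sum of the lens list, with the wild-type libraries climbing at high lens sums up to day 14 replicate 1; on the right, Col3a1 against the sum of the fibroblast list.

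Col18a1, the other abundant basement membrane gene, behaved more evenly. It was at 105, 105, 122 and 93.9 CPM in the controls and 177, 134, 167 and 155 CPM at day 3, with no overlap (0.57 ± 0.472, adjusted p = 0.38). In day 14 replicate 1 it was at 357 CPM, against 44.6 to 77.1 CPM in the other 3 day 14 libraries. In the fit with both scores as covariates its day 3 log2 fold change turned to -0.52 (adjusted p = 0.61). Without 3 libraries with extreme marker sums (replicate 3 of day 3, replicate 2 of day 7, replicate 1 of day 14), Col18a1 was called higher at day 3 (0.56, adjusted p = 0.027). Without these 3 libraries 17 collagens were called at day 3, 12 higher and 5 lower, among them Col4a5, Col4a6, Col5a1, Col14a1 and Col16a1.

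The third class holds epithelial, fibril-associated and other collagens, and apart from the genes above none of it was called at day 3. Col17a1 measured 306, 157, 64.4 and 69.2 CPM in the controls and 308, 202, 928 and 70.0 CPM at day 3 (1.34 ± 0.79, adjusted p = 0.22). It was highest where the cornea and conjunctiva list was highest, with 5 of the 5 highest wild-type libraries shared, and it was at 2.21 to 4.92 CPM in the Rag2 set, where that list was near 0. With the lens and cornea scores as covariates its log2 fold change turned to -0.74 (adjusted p = 0.41). Col9a3 did not move beyond its spread (-0.039 ± 0.223, adjusted p = 0.91). Over the 24 tested genes of this class the log2 fold changes ran from -1.55 to 2.22, 10 of them positive.

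Genes that make, process, bind and break collagen were described by 6 lists. In each of them the genes called at day 3 were all higher, beside 6.97% of all genes called higher and 7.77% lower. The chaperone Serpinh1 was the only 1 of 18 folding and modification genes called (1.66 ± 0.506, adjusted p = 0.043). Of 11 tested processing and cross-linking genes 3 rose, Lox (4.18 ± 0.532, adjusted p = 0.0028), the procollagen protease Bmp1 (1.57) and its enhancer Pcolce (1.19). Lox went from 0.685 ± 0.279 CPM in the controls to 12.6 ± 5.32 CPM at day 3 (SD, n = 4 each). Aspn rose among 14 genes of fibril-binding proteoglycans and glycoproteins (1.80 ± 0.354, adjusted p = 0.012). The integrin chain Itga1 (0.82) and the inhibitory leukocyte receptor Lair1 (0.74) rose among 10 tested receptors, and the laminin chain Lama4 among 16 basement membrane partners (1.19 ± 0.368, adjusted p = 0.045). Among 6 tested proteases Mmp12, the macrophage elastase, rose by 4.36 ± 0.601 (adjusted p = 0.0033). The list medians lay between 0.40 for folding and 1.08 for basement membrane partners, beside 0.0088 over all genes.

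At day 7 after the laser, 5 of 43 collagens were called (11.6%, beside 10.5% of all genes), 3 higher (3.62% of all genes) and 2 lower (6.9%). Groups did not overlap in 4 higher and 3 lower collagens, beside 11.3% and 18.4% of all genes. All comparisons with control share the same 4 control libraries. Col3a1 measured 121, 29.4, 39.4 and 83.7 CPM, still above every control (2.24 ± 0.574, adjusted p = 0.029). Col5a2 was at 8.76 to 16.6 CPM (1.30 ± 0.391, adjusted p = 0.048) and Col10a1 at 1.16 to 5.06 CPM (2.30 ± 0.628, adjusted p = 0.036). Col8a2 measured 83.8, 60.0, 52.6 and 36.2 CPM (-1.08 ± 0.232, adjusted p = 0.018) and Col8a1 46.0, 26.7, 28.1 and 24.9 CPM (-1.12 ± 0.267, adjusted p = 0.023), and neither overlapped with the controls. Type I did not pass, with Col1a1 at 25.2 to 95.4 CPM (1.48 ± 0.54, adjusted p = 0.083) and Col1a2 at 1.25 ± 0.488 (adjusted p = 0.0995). Col2a1, at 112 to 143 CPM, overlapped with the controls (-0.056 ± 0.122, adjusted p = 0.77). Without control replicate 3, or without day 7 replicate 2, no collagen was called at day 7. Without control replicate 4 the calls of Col3a1 and Col5a2 were lost, and the number was 3. Without control replicate 1 it was 1, and without control replicate 2 or day 7 replicate 1 it was 2.

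By day 14 only Col8a2 was called, 1 of 43 (2.33%, beside 0.273% of all genes, 0.0322% higher and 0.241% lower). Groups did not overlap in 3 higher and 3 lower collagens, beside 6.76% and 12.8% of all genes. Col8a2 measured 63.0, 51.6, 41.9 and 53.9 CPM, each below every control (-1.22 ± 0.233, adjusted p = 0.040). That call was lost without any 1 of the 4 controls, without day 14 replicate 2 and without day 14 replicate 3, with an adjusted p of up to 0.171, while the log2 fold change stayed between -1.32 and -1.10. Col3a1 measured 151, 35.5, 88.4 and 27.4 CPM and was above every control, with 2.39 ± 0.577 and an adjusted p of 0.069. Without day 14 replicate 4 it was called (2.67, adjusted p = 0.046). Col8a1 (-1.03, adjusted p = 0.073), Col10a1 (2.20, adjusted p = 0.083) and Col5a2 (1.22, adjusted p = 0.10) also had no overlap with the controls. Type IV genes ranged widely, Col4a1 from 37.8 to 4238 CPM (2.67 ± 1.16, adjusted p = 0.18). Without day 14 replicate 1, Col18a1 was called lower than control (-0.81, adjusted p = 0.045), whereas with it the log2 fold change was 0.33 ± 0.471 (adjusted p = 0.66).

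Between the times after laser no collagen was called. Day 7 against day 3 gave 0 of 43, beside 0.0% of all genes in either direction, and DESeq2 called 0. By edgeR 4 of the 43 had an unadjusted p under 0.05, beside 1144 of all 18657 genes. Those 4 were Col2a1 (0.46 ± 0.123), Col19a1 (1.38 ± 0.416), Col11a2 (0.43 ± 0.168) and Col22a1 (0.80 ± 0.324), each higher at day 7. Day 14 against day 3 also gave 0 of 43, beside 0.00536% of all genes. An unadjusted p under 0.05 by edgeR was reached by 5 of the 43, beside 1263 of all 18657 genes. The smallest p there was that of Col5a3, at 3.81 to 7.15 CPM on day 14 (-1.02 ± 0.225, adjusted p = 0.20), which DESeq2 called. For Col8a2 the differences between times were 0.17 ± 0.23 and 0.020 ± 0.23, and for Col3a1 they were -0.71 ± 0.545 and -0.57 ± 0.544. Without day 14 replicate 1, 5 collagens were called at day 14 against day 3, with Col5a3, Col5a1, Col16a1 and Col18a1 lower and Col19a1 higher.

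The second table asks whether loss of the common gamma chain changes the day 3 tissue in mice that lack Rag2. Of 44 collagens 2 were called (4.55%, beside 0.465% of all genes), both lower in Rag2-/-γc-/-, beside 0.254% of all genes lower and 0.211% higher. Groups did not overlap in 1 higher and 8 lower collagens, beside 11.5% and 10.6% of all genes. Col11a2 (chr17:34039437-34066685, plus strand, mm10) encodes a type XI chain. It measured 27.4, 32.8 and 26.3 CPM in Rag2-/- and 14.9, 16.4 and 13.6 CPM in Rag2-/-γc-/- (-0.94 ± 0.119, adjusted p = 0.016). Col2a1 measured 38.7, 31.6 and 40.9 CPM against 21.8, 23.5 and 22.7 CPM (-0.71 ± 0.106, adjusted p = 0.031). Neither overlapped between the genotypes. Without Rag2-/-γc-/- replicate 1, Col11a2, Col9a1 (-0.82) and Col6a1 (-0.55) were called lower and Col2a1 was not. Col11a2 was called in 5 of the 6 fits without 1 library and Col2a1 in 1 of 6, with adjusted p of up to 0.126. Just outside the threshold was Col7a1, the anchoring fibril collagen, at 25.7 to 33.6 against 17.6 to 19.6 CPM (-0.67 ± 0.116, adjusted p = 0.052). Cartilage, sclera and bone markers summed to 23.5 to 30.0 CPM in Rag2-/- and 27.0 to 38.2 CPM in Rag2-/-γc-/-, with 0 of 4 tested called.

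The scar collagens of the Rag2 pair turned on 1 library. Col1a1 measured 39.5, 100 and 75.2 CPM in Rag2-/- and 453, 84.1 and 49.3 CPM in Rag2-/-γc-/-. Col3a1 measured 110, 170 and 127 CPM against 654, 134 and 95.4 CPM. In both genes Rag2-/-γc-/- replicate 1 stood far above the other 5 libraries, and the differences of 1.45 ± 1.04 and 1.12 ± 0.885 did not pass (adjusted p = 0.59 and 0.62). Without it the log2 fold change was -0.11 for Col1a1 and -0.24 for Col3a1. The same library had the highest macrophage sum, 506 CPM against 150 to 283 CPM in the other 5, and the highest fibroblast sum, 180 CPM against 54.7 to 102 CPM, and the part of these cells was not tested. Col8a2 did not differ beyond its spread (-0.13 ± 0.223, adjusted p = 0.84). Col8a1 was higher in all 3 Rag2-/-γc-/- libraries, at 39.5, 33.5 and 78.8 against 30.3, 30.5 and 26.0 CPM, and was not called (0.81 ± 0.356, adjusted p = 0.39). None of the genes in the 6 collagen-related lists was called in this comparison.

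**Figure D5:**
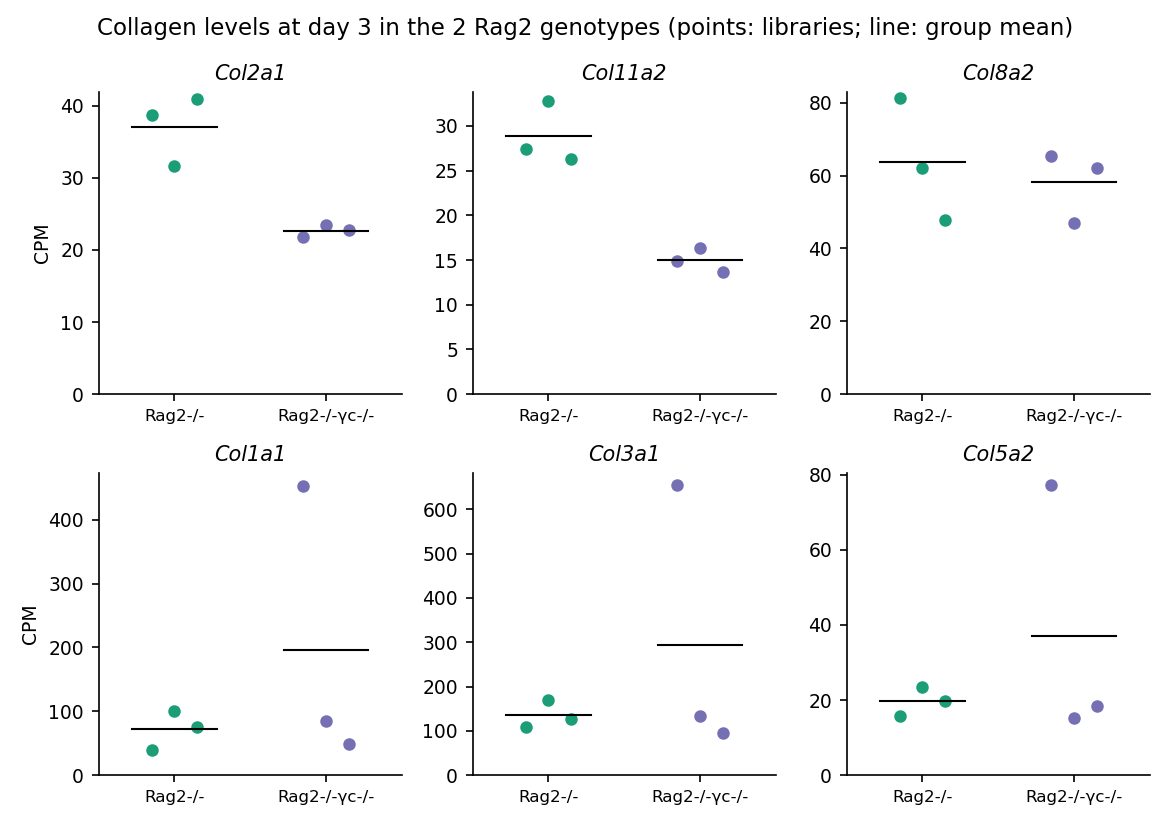
CPM of 6 collagen genes in the 3 Rag2-/- and 3 Rag2-/-γc-/- libraries at day 3, with 1 point per library and a line at the mean; each vertical axis starts at 0. Col2a1 and Col11a2 do not overlap between the genotypes, and in Col1a1, Col3a1 and Col5a2 replicate 1 of Rag2-/-γc-/- lies far above the other 2.

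In the authors' deposited table of comparisons with control, more collagens passed an adjusted p of 0.05. It lists 23 of 44 at day 3 (18 higher and 5 lower, beside 26.4% of all genes with a value), 9 at day 7 (7 and 2, beside 18.8%) and 4 at day 14 (2 and 2, beside 3.65%). Per the authors' deposited table Col4a1 was among them at day 3, with a log2 fold change of 2.42 and an adjusted p of 0.00983. The other type IV genes also passed there at day 3, with the authors' adjusted p from 4.28e-06 (Col4a6) to 0.0167 (Col4a3). Of the remaining basement membrane genes, Col18a1 passed (6.66e-05) and Col15a1 did not (0.364).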

How the data were processed

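RNA of the retina and choroid was measured in 16 wild-type and 6 Rag2 libraries, prepared by Novogene from TRIzol extracts, per the labels' protocols. The deposited values are raw gene counts from featureCounts 1.5.0-p3 on mm10, per the submitters' processing notes. For the aligner, annotation release and strandedness of counting, nothing is given in the sources used here. The FPKM values that the authors deposited were used only to check the gene lengths in the file. The log2 fold changes and adjusted p-values that the authors deposited are quoted as theirs.

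Counts of each table were filtered with filterByExpr (minimum count 10, minimum total 15), scaled by TMM and tested with edgeR 4.0.16 in R 4.3.3 (quasi-likelihood, all groups of a table in 1 fit, no block). This left 18657 wild-type and 18923 Rag2 genes, and p-values were adjusted over all of them by the Benjamini-Hochberg method. CPM uses TMM-scaled totals. Each table had its own fit, without tests between the tables. The fit was checked on simulated counts with 100 genes changed by 1 and 100 by 2 on the log2 scale. For day 3 against control it recovered 55% and 93% of them, with 7 false calls. For the Rag2 pair it recovered 79% and 98%, with 23 false calls.

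Alternatives were RLE size factors, scaling by totals, no filter, DESeq2 1.42.0, limma 3.58.1 (voom), the replicate block, lens and cornea scores as covariates, only the compared groups, leaving out 3 libraries together, and leaving out each library. The members and lists were chosen with earlier results of these data known. Values are given for members called in any comparison, the 3 highest per length in each class, and Col3a1 and Col8a2, and for at most 3 genes per list with the smallest p. Other genes were named after their values were seen. Replicates of every group differed beyond sampling noise. Promoters and miRNAs are from RefSeq (GRCm38.p6) and untranslated regions from GENCODE M21, using the transcript with the longest coding sequence.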

Additional observations from a re-analysis of the deposited data

Results flagged for a closer look

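In groups of 4 libraries, 15 of 172 had 1 library whose gap to its nearest neighbour, as a share of the group's range, was above Dixon's 95% critical value, where chance gives about 1 in 20. Day 14 replicate 1 gave 8 of the 15. In it Col4a1 was at 4238 CPM (37.8 to 693 in the other 3), Col4a2 at 2111 CPM (36.8 to 365) and Col4a6 at 284 CPM (9.54 to 49.9). Col18a1 was at 357 CPM there (44.6 to 77.1), Col16a1 at 50.2 CPM (8.18 to 11.9), Col6a2 at 44.0 CPM (15.7 to 18.4) and Col23a1 at 185 CPM (78.3 to 94.9). Col6a1 was the lowest of its group there, at 65.2 CPM (93.1 to 94.0). This library also had the highest lens sum, 136349 CPM, and the part of lens RNA in these values was not tested.

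The other 7 were spread over 6 libraries. In control replicate 3, Col1a2 was at 50.2 CPM (33.5 to 35.6) and Col13a1 at 2.10 CPM (1.299 to 1.36). Col6a5 was at 1.31 CPM in control replicate 2 (0.390 to 0.495). Col19a1 was at 3.14 CPM in day 3 replicate 2 (1.31 to 1.59), the day 3 library nearest to the controls. Col8a1 was at 46.0 CPM in day 7 replicate 1 (24.9 to 28.1), and Col24a1 at 5.80 CPM in day 14 replicate 2 (3.32 to 3.61). Col13a1 was lowest in day 7 replicate 3, at 1.01 CPM (1.45 to 1.55).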

How the results depend on the processing

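Collagens called at day 3 against control, 11 in the report, numbered 1 with the lens and cornea scores as covariates, 20 in a fit of the compared groups alone and 17 without 3 libraries (replicate 3 of day 3, replicate 2 of day 7, replicate 1 of day 14), and 8 to 12 under the other settings. At day 7, 5 became 2 without the filter, 8 with DESeq2, 3 with limma voom, 2 with the covariates and 8 with only the compared groups. Without the 3 libraries Col5a1 and Col9a1 were called at day 7 in addition to those 5. At day 14, 1 became 0 with scaling by totals, 5 with DESeq2, 0 with only the compared groups and 2 without the 3 libraries. Day 7 against day 3 stayed at 0 in all settings run. Day 14 against day 3 went from 0 to 1 with DESeq2, 1 with the covariates and 4 without the 3 libraries. The Rag2 count of 2 became 4 without the filter, 6 with DESeq2 and 1 with limma voom. In the Rag2 pair, scaling by totals added Col7a1 and the covariates added Col9a1. Leaving out 1 library gave 2 to 11 at day 3, 0 to 5 at day 7, 0 to 2 at day 14, 0 to 5 for day 14 against day 3, and 1 to 3 in the Rag2 pair. Genes called in the whole table moved too, at day 3 from 2749 to 4799 with DESeq2, 7171 with only the compared groups and 344 with the covariates, and in the Rag2 pair from 88 to 692 with DESeq2. The cause was not tested.

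Deviations from the group mean were correlated between libraries. Same-numbered wild-type pairs gave r from -0.506 to 0.479 (24 pairs, median 0.105, 12 over 0.1). Pairs with different numbers gave -0.561 to 0.596 (72 pairs, median -0.00633, 28 over 0.1). The 3 same-numbered Rag2 pairs gave -0.0582 to 0.078. With such wide ranges these values cannot decide whether the numbers pair the libraries. With the replicate block the calls were 12 at day 3, 5 at day 7, 0 at day 14 and 1 in the Rag2 pair, where Col2a1 was lost (adjusted p = 0.0748).

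Leaving out 1 library gave -0.12 to 0.062 for Col9a3 at day 3, and in the Rag2 pair -0.11 to 1.91 for Col1a1, -0.24 to 1.54 for Col3a1 and -0.31 to 0.087 for Col8a2. No called difference turned its sign. Of the uncalled, Col18a1 at day 14 went from 0.33 to -0.81 and was called without day 14 replicate 1, and also without the 3 libraries. At day 3 the signs that turned were Col17a1 (-0.74) and Col18a1 (-0.52) with the covariates, and Col9a3 without control replicate 3 (0.062) or day 3 replicate 2 (0.048). In the Rag2 pair those were Col1a1 (-0.11) and Col3a1 (-0.24) without Rag2-/-γc-/- replicate 1, and Col8a2 without Rag2-/- replicate 1 (0.087) or Rag2-/-γc-/- replicate 2 (0.0017). Groups of 3 or 4 libraries and uneven lens RNA limit all comparisons of type IV genes.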

Other observations

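Pairs of collagen chains that form 1 molecule kept their count ratio in different degrees over the 16 wild-type libraries. The ratio of Col4a3 to Col4a4, whose genes lie head to head 71 bases apart, stayed between 0.855 and 1.31. For Col4a5 to Col4a6 it was 1.46 to 3.46 in the wild type and 2.64 to 153 in the 6 Rag2 libraries, where Col4a6 was as low as 0.108 CPM, close to the level of 3 counts, in the library with the highest ratio. For Col6a1 to Col6a2 it was 1.48 to 6.52 in the wild type.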
